A study of Mus musculus with 16 samples.

Results

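The nuclear-encoded subunits of the respiratory chain and the ATP synthase were described in MC38 cells, a mouse colon carcinoma line, in cells labelled WT or Ythdf2-KO, the latter for a knockout of the m6A reader YTHDF2. Members were the rows of the deposited gene count table whose symbol marks a subunit of complexes I to V or is Cycs (cytochrome c), without the pseudogene suffix -ps and with a mean of at least 1 CPM (counts scaled to library size) over the 6 input libraries. The symbol rule matched 106 of 55401 genes. Of these, 14 were left out for the suffix and 8 for a mean under 1 CPM, which left 84 members: 39 of complex I, 4 of complex II, 9 of complex III, cytochrome c, 14 of complex IV and 17 of complex V. All 84 were among the 18969 genes that passed the filter on low counts. By the gene annotation 81 are protein-coding and 3 (Ndufs6b, Ndufb4c and Cox6c2) are processed pseudogenes. The members lie on 19 chromosomes, 3 of them on the X chromosome.

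Complexes I and II pass electrons from NADH and succinate to coenzyme Q, complex III passes them on to cytochrome c, and complex IV passes them to oxygen. Complexes I, III and IV pump protons across the inner mitochondrial membrane, and complex V uses the resulting gradient to make ATP. Complexes I, III, IV and V also hold subunits encoded by the mitochondrial genome, so their assembly draws on both genomes, while complex II is wholly nuclear-encoded. YTHDF2 is a cytoplasmic protein that binds mRNAs methylated at N6 of adenosine (m6A) and is known for shortening the lifetime of many of them.

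WT cells (titles with gNC) and cells labelled Ythdf2-KO (titles with gY2) were grown as cultures in DMEM with fetal bovine serum and antibiotics, and no other treatment is named. Each genotype has 3 input libraries of polyadenylated RNA and 3 m6A immunoprecipitations, and WT cells also have 2 YTHDF2 immunoprecipitations (RIP) with 2 inputs, 16 libraries in all. Levels come from the 6 inputs, and peaks from 3 deposited lists, 1 per genotype for m6A and 1 for the RIP. The labels do not say that the 3 inputs came from separate cultures or how many knockout clones were used, and the spread behind each p-value may therefore be technical.

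The inputs held 45441281 to 50959555 counted reads, and members took 1.57% to 1.67% of them. Whole-gene counts of Ythdf2 were 55.6, 68.6 and 59.7 CPM in WT and 67.9, 59.8 and 61.5 CPM in the libraries labelled Ythdf2-KO, a difference of 0.04 on the log2 scale (SE 0.10, adjusted p = 0.809 by edgeR). That count does not check the label, and directions below follow the labels. KO-labelled input 1 stood apart from the other 2 of its group. Between count profiles, chi-square divided by degrees of freedom was 64.3 and 63.9 against KO-labelled inputs 2 and 3, but 26.8, 42.4 and 42.6 against WT inputs 1, 2 and 3. The closest libraries, WT inputs 2 and 3, still differed at 8.31. Of 8 epithelial markers only Krt20 was tested, the 8 summed to 0.602 to 0.955 CPM, and Epcam and Krt18 had 0 counts in every input, which allows up to 0.0652 CPM in a library. Of 14 leukocyte and endothelial markers 4 were tested, and the summed level was 2.64 to 3.55 CPM in the 6 inputs, with Adgre1 and Ly6g at 0 counts. The T cell gene Cd3d was lower in the KO-labelled libraries at 1.26 CPM or less (log2 fold change -1.52, edgeR adjusted p = 0.0461). The 9 fibroblast markers summed to 2076 to 2618 CPM in WT and 1503 to 2619 CPM in the KO-labelled libraries. Of the 8 tested, Dcn was lower (log2 fold change -0.82, adjusted p = 0.0355) and Thy1 was not tested. The part of these markers in the results on subunits was not tested.

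Subunit mRNAs were abundant and their summed level did not separate the genotypes. Member levels summed to 15056, 16594 and 16533 CPM in WT and to 16345, 16694 and 16250 CPM in the KO-labelled libraries. WT input 1 was the lowest of the 6, and the groups overlapped. Members had a median level of 163 CPM, from 1.70 CPM for Cox7a1 to 1591 CPM for Atp5b, against a median of 15.0 CPM over all genes tested. Per kilobase of the gene's median transcript length, the WT level was highest for Atp5b (780 CPM per kb) and Cox4i1 (751 CPM per kb). Atp5b is the catalytic beta subunit of ATP synthase, and Cox4i1 is a nuclear-encoded subunit of complex IV. The most abundant member of complex I by the same measure was Ndufa4 at 626 CPM per kb, of complex III Uqcrh (the hinge protein) at 613 CPM per kb, and of complex II Sdhb (the iron-sulfur subunit) at 182 CPM per kb. Ndufa4 carries a complex I name but is known to be part of complex IV. These per-kilobase levels depend on the length used: over the union of all exons Atp5b is at 353, Cox4i1 at 366 and Ndufa4 at 208 CPM per kb. By that length the highest level of all members is that of Cox6a1 (479 CPM per kb), and Ndufa1 (345), Sdhd (107) and Uqcr10 (313) lead complexes I, II and III, above Sdhb and Uqcrh (235).

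No member passed the test between genotypes. With edgeR's quasi-likelihood test and an adjusted p below 0.05 over all genes tested, the KO-labelled libraries had 0 of 84 members higher and 0 lower, beside 2.99% higher and 1.54% lower among all genes tested. At an unadjusted p below 0.05, 12 members were higher and 7 lower (14.3% and 8.33% of the 84), against 16.9% and 12.6% of all genes tested. The 3 libraries of each group did not overlap for 18 members that were higher and 8 that were lower (21.4% and 9.52%), against 17.7% and 16.2% of all genes. The median log2 fold change was -0.02 over members and -0.01 over all genes, with 37 members above 0 and 47 below. All genes have a lower median level than members. Relative to the WT mean, genes of at least 10 CPM had median log2 levels of 0.03, 0.07 and 0.07 in KO-labelled inputs 1, 2 and 3. Members had 0.01, -0.01 and -0.06 there. In WT inputs 1, 2 and 3 these medians were -0.03, 0.02 and -0.002 for those genes and -0.10, 0.03 and 0.06 for members. Between the quartiles members ran from -0.12 to 0.10, and all genes from -0.29 to 0.24. In 80 of the 84 the log2 fold change was smaller than 0.3 in size, and the median SE was 0.08.

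**Figure D1:**
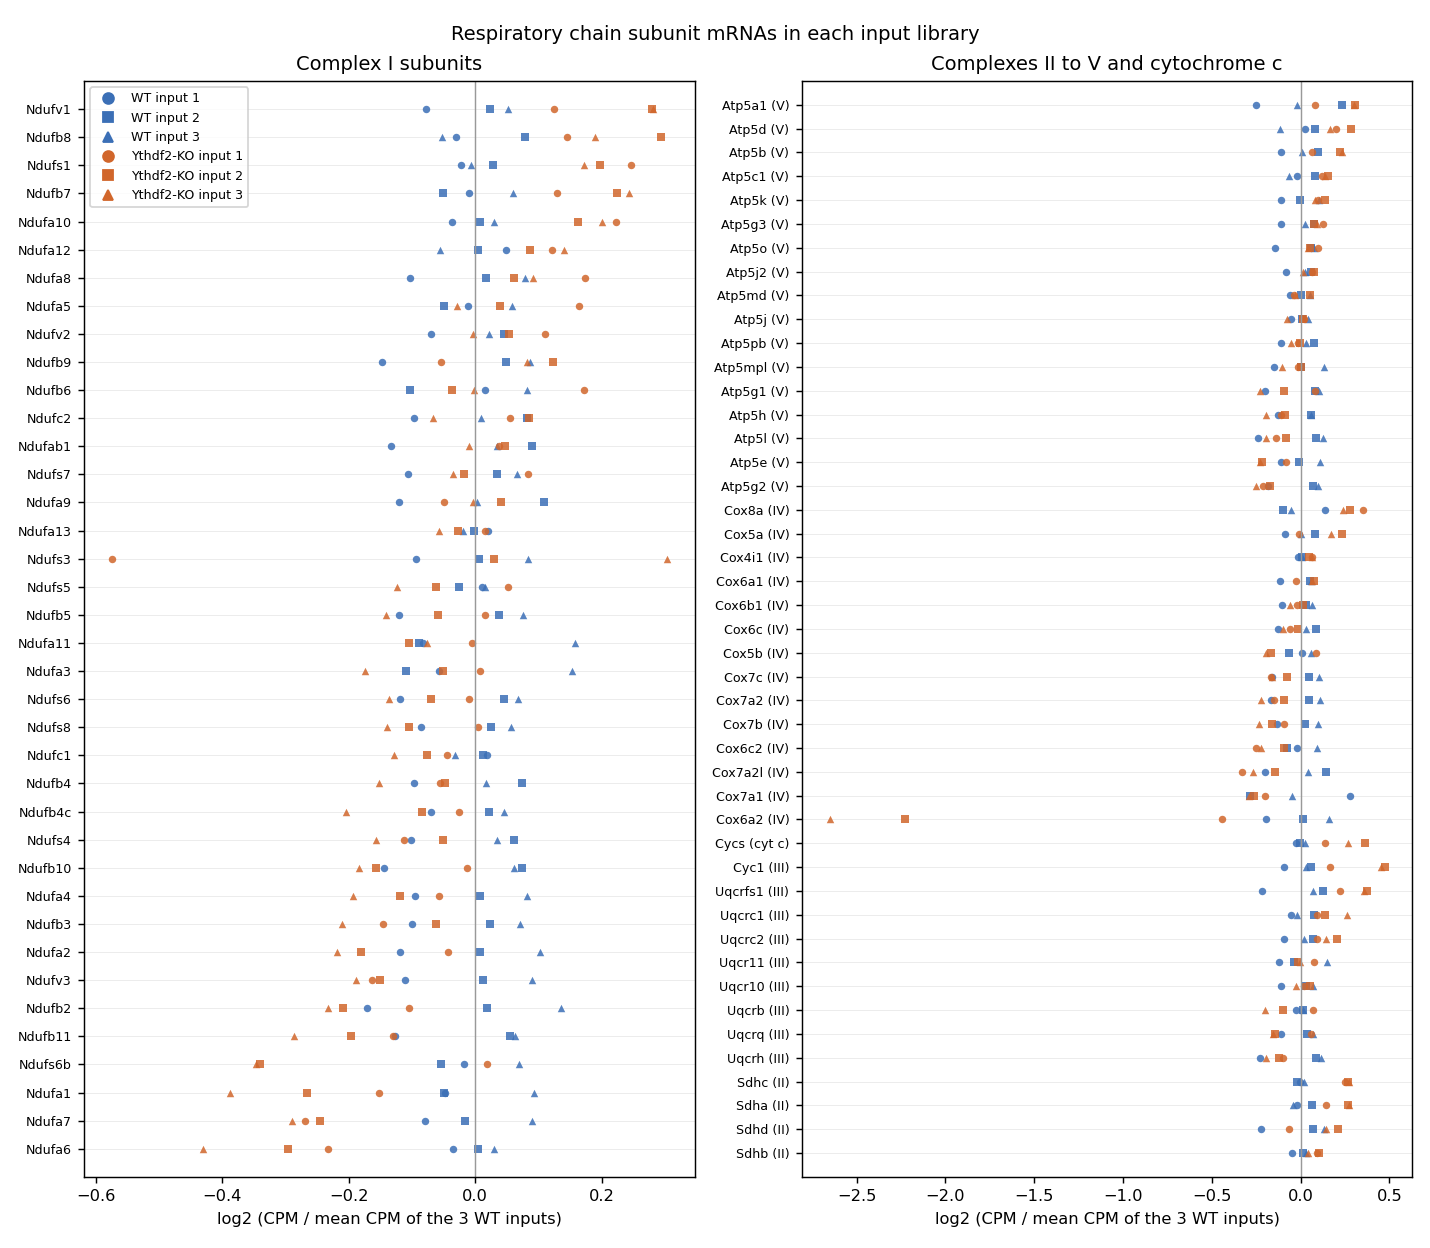
Each row is 1 of 83 members and each point 1 input library, placed at the log2 ratio of its CPM to the mean CPM of the 3 WT inputs (blue for WT, orange for Ythdf2-KO; circle, square and triangle for inputs 1, 2 and 3). Rows are ordered by fold change within each complex, and the panels differ in horizontal scale. Most points lie within 0.3 of the WT mean, and Cox6a2 in KO-labelled inputs 2 and 3 lies far below it.

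The number of calls turned on KO-labelled input 1. Without that library edgeR called 10 members higher and 4 lower, where it then called 19.3% of all genes tested higher and 16.1% lower. The members called higher were Cyc1, Uqcrfs1, Cycs, Sdha, Sdhc, Cox8a, Ndufs1, Ndufv1, Ndufb7 and Ndufb8, and those called lower were Cox6a2, Ndufa6, Ndufa7 and Ndufa1. With DESeq2 on all 6 libraries 5 members were higher (Cyc1, Uqcrfs1, Cycs, Sdhc and Cox8a) and 2 lower (Ndufa6 and Ndufa7), against 12.8% and 6.80% of all genes. All 7 were also among the 14. Leaving out any other input gave 0 members, and then no more than 0.476% of all genes were called. Ndufa7 and Ndufa1 fall outside the rule for named genes and are named here after their values were seen.

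Complex I has a peripheral arm that oxidises NADH and a membrane arm that pumps protons, with a core of catalytic subunits and a larger number of accessory ones. Its 39 members summed to 4997, 5396 and 5485 CPM in WT and to 5277, 5241 and 5091 CPM in the KO-labelled libraries, which overlap. The median log2 fold change was -0.06, with 14 members above 0 and 25 below. Ndufv1, which binds NADH and flavin, had the highest fold change of the complex. Its levels were 143, 153 and 156 CPM in WT and 164, 183 and 183 CPM in the KO-labelled libraries. The groups did not overlap, and the log2 fold change was 0.23 (SE 0.08, edgeR adjusted p = 0.103). Ndufs1, the iron-sulfur subunit next to it in the electron path, measured 159, 165 and 161 CPM in WT and 192, 186 and 182 CPM in the KO-labelled libraries. Again all KO-labelled values lay above all WT values (log2 fold change 0.21, SE 0.06, adjusted p = 0.0877).

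Other core subunits of complex I lay closer to 0. Ndufv2, an iron-sulfur partner of Ndufv1, had a log2 fold change of 0.05 (SE 0.07). Ndufs7, which helps form the coenzyme Q site, had 0.01 (SE 0.08), and the iron-sulfur subunit Ndufs8 had -0.08 (SE 0.07). Ndufs3, also of the peripheral arm, measured 38.0, 40.7 and 43.0 CPM in WT and 27.3, 41.4 and 50.1 CPM in the KO-labelled libraries. The KO-labelled inputs spread on both sides of WT, with input 1 the lowest of all 6 and input 3 the highest. Ndufs3 overlaps the expressed gene Kbtbd4 on the other strand, and its log2 fold change was -0.04 (SE 0.20).

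The accessory subunit Ndufa6, of the family of small LYR-motif proteins, had the lowest fold change of complex I. Its levels were 119, 123 and 125 CPM in WT and 104, 99.5 and 90.5 CPM in the KO-labelled libraries. All KO-labelled values were below all WT values (log2 fold change -0.32, SE 0.07, edgeR adjusted p = 0.0543; without KO-labelled input 1, -0.36 and 0.0050). In the same direction and also without overlap, Ndufa7 had 162, 170 and 183 CPM against 142, 145 and 140 CPM, and Ndufa1 had 140, 140 and 154 CPM against 130, 120 and 111 CPM. The accessory subunits Ndufb7, Ndufb8 and Ndufa10 went the other way, with log2 fold changes of 0.20, 0.21 and 0.19 and no overlap between the groups. Ndufa10 measured 181, 187 and 190 CPM in WT and 217, 208 and 213 CPM in the KO-labelled libraries.

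Complex II, succinate dehydrogenase, is shared by the respiratory chain and the tricarboxylic acid cycle. All 4 of its members had a log2 fold change above 0, with a median of 0.16. Their levels summed to 736, 782 and 776 CPM in WT and to 830, 887 and 872 CPM in the KO-labelled libraries, without overlap. Sdhc, a membrane anchor that helps bind coenzyme Q and haem, measured 167, 165 and 169 CPM in WT and 199, 201 and 202 CPM in the KO-labelled libraries. Values within each group were within a few CPM of each other, and the log2 fold change was 0.26 (SE 0.06, edgeR adjusted p = 0.0532, the lowest of any member). Sdha, the flavoprotein that oxidises succinate, measured 254, 269 and 250 CPM in WT and 284, 310 and 311 CPM in the KO-labelled libraries. Its groups also did not overlap (log2 fold change 0.23, SE 0.07, adjusted p = 0.093). Sdhb had 0.08 (SE 0.06), and the other anchor, Sdhd, had 0.10 (SE 0.12) with overlapping groups.

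**Figure D2:**
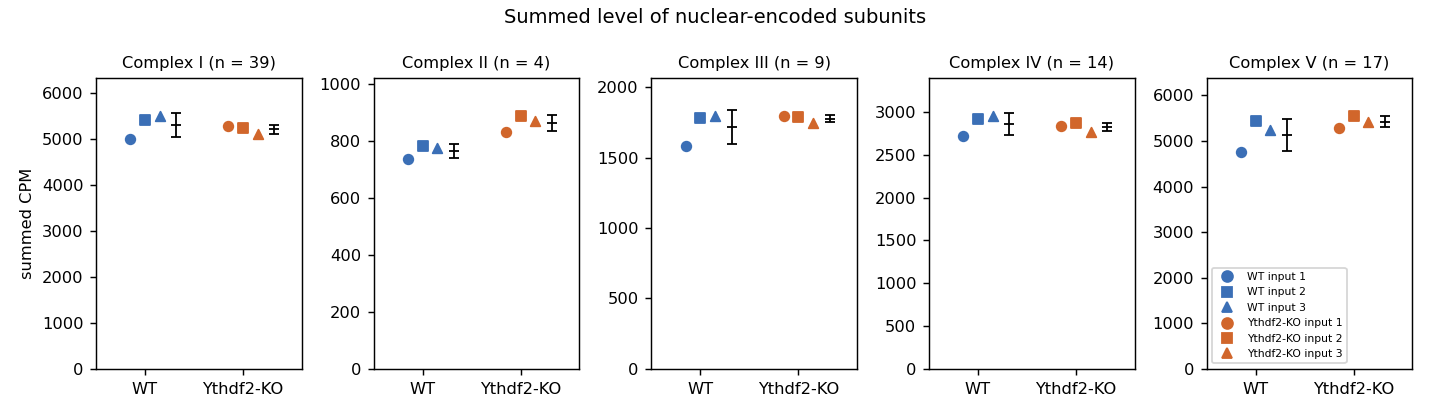
Summed CPM of the nuclear-encoded members of each complex in each input library (points), with the mean and SD of the 3 libraries of a genotype beside them; every vertical axis starts at 0 and has its own scale. The 2 groups separate in complex II (736 to 782 CPM in WT, 830 to 887 CPM in Ythdf2-KO) and overlap in complexes I, III, IV and V.

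Complex III members summed to 1579, 1780 and 1793 CPM in WT and to 1793, 1791 and 1747 CPM in the KO-labelled libraries, which overlap. Cyc1, its haem subunit that hands electrons to cytochrome c, had the highest fold change of all 84 members. It measured 103, 114 and 112 CPM in WT and 123, 152 and 150 CPM in the KO-labelled libraries. KO-labelled input 1 lay between WT and the other 2 KO-labelled inputs, and the groups did not overlap (log2 fold change 0.37, SE 0.10, edgeR adjusted p = 0.0704; without that input, 0.47 and 0.0020). Uqcrfs1, the Rieske iron-sulfur protein, measured 136, 173 and 165 CPM in WT and 184, 204 and 203 CPM in the KO-labelled libraries. The lowest KO-labelled value was above the highest WT value (log2 fold change 0.32, SE 0.10, adjusted p = 0.1004). The core proteins Uqcrc1 and Uqcrc2 had 0.16 and 0.15, each without overlap. The small subunits were spread from -0.14 for Uqcrh to 0.02 for Uqcr11 and Uqcr10, all with overlapping groups.

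Cytochrome c, encoded by Cycs, carries electrons between complexes III and IV and triggers apoptosis when released from mitochondria. Cycs measured 283, 287 and 293 CPM in WT and 317, 371 and 347 CPM in the KO-labelled libraries. The groups did not overlap, and the KO-labelled libraries spread more widely than WT (log2 fold change 0.26, SE 0.08, edgeR adjusted p = 0.0834).

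Complex IV, cytochrome c oxidase, has its catalytic core encoded by the mitochondrial genome, and its nuclear subunits surround that core, several of them as tissue-specific isoforms. Its 14 members summed to 2715, 2918 and 2948 CPM in WT and to 2835, 2866 and 2770 CPM in the KO-labelled libraries. These overlap, and the median log2 fold change was -0.11, with 4 members above 0. Cox6a2, the heart and skeletal muscle isoform of subunit 6a, measured 18.4, 21.2 and 23.5 CPM in WT and 15.5, 4.49 and 3.34 CPM in the KO-labelled libraries. KO-labelled input 1 was close to WT and inputs 2 and 3 were far below it (log2 fold change -1.43, SE 0.53, edgeR adjusted p = 0.129; without input 1, -2.42 and 1.6e-04). Cox6a1, the widely expressed isoform, was at 311, 349 and 350 CPM in WT and 330, 355 and 353 CPM in the KO-labelled libraries, with overlap and a log2 fold change of 0.04 (SE 0.08). Of the pair, Cox6a2 made up the smaller part in every library.

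The other isoform sets were also led by their widely expressed forms. Cox4i1 measured 562, 569 and 570 CPM in WT and 593, 587 and 593 CPM in the KO-labelled libraries, while Cox4i2, the isoform known from lung and hypoxia, averaged 0.0717 CPM and was left out. The 2 groups of Cox4i1 did not overlap, yet the log2 difference was 0.06 (SE 0.06, adjusted p = 0.525). Cox6b1 had a log2 fold change of -0.02 (SE 0.07), and its testis isoform Cox6b2 averaged 0.0109 CPM. Cox8a, the general form of the smallest subunit, measured 250, 212 and 219 CPM in WT and 289, 275 and 268 CPM in the KO-labelled libraries. Its groups did not overlap (log2 fold change 0.29, SE 0.08, adjusted p = 0.0799), and the isoforms Cox8b and Cox8c averaged 0.0177 and 0.00971 CPM. Cox7a1, the muscle form of subunit 7a, was at 1.52 to 2.24 CPM in WT and 1.51 to 1.61 CPM in the KO-labelled libraries. Cox7a2, the general form, had a log2 fold change of -0.15 (SE 0.09).

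Cox7a2l, whose product is known for a part in joining complexes III and IV into supercomplexes, is a member by its symbol. Whether its product does so in these cells was not measured. It measured 226, 287 and 267 CPM in WT and 207, 235 and 216 CPM in the KO-labelled libraries. WT input 1 fell within the KO-labelled range, so the groups overlapped (log2 fold change -0.25, SE 0.10, edgeR adjusted p = 0.166).

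Complex V members summed to 4746, 5430 and 5238 CPM in WT and to 5294, 5539 and 5423 CPM in the KO-labelled libraries, with overlap and a median log2 fold change of 0.00. The alpha and beta subunits Atp5a1 and Atp5b form the catalytic head. Atp5b measured 1386, 1596 and 1499 CPM in WT and 1563, 1744 and 1756 CPM in the KO-labelled libraries, and Atp5a1 302, 423 and 355 CPM against 381, 446 and 444 CPM. In each, KO-labelled input 1 lay within the WT range and inputs 2 and 3 above it (log2 fold changes 0.18 and 0.23, SE 0.08 and 0.13, edgeR adjusted p = 0.189 and 0.272). The genes Atp5g1, Atp5g2 and Atp5g3 encode the same mature subunit c of the membrane rotor. Atp5g3 was the most abundant at 276, 314 and 303 CPM in WT and 325, 314 and 318 CPM in the KO-labelled libraries (log2 fold change 0.10, SE 0.07). Atp5g2 had the lowest fold change of complex V, at 112, 134 and 136 CPM against 110, 113 and 107 CPM (-0.21, SE 0.09, adjusted p = 0.169). WT input 1 lay among the KO-labelled values. Atp5g1 lay at -0.07 (SE 0.11).

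A fixed list of 14 subunits, drawn up for catalytic sites and redox centres, leaned to higher values more often than the rest. Of these 14 subunits 11 were above 0, with a median log2 fold change of 0.19. For 7 of them the groups did not overlap, all higher. Of the other 70 members 26 were above 0, with a median of -0.06, and their groups did not overlap for 11 higher and 8 lower members. Without overlap and higher were thus 50.0% of the 14 and 15.7% of the 70, and without overlap and lower 0 of the 14 and 11.4% of the 70, against 17.7% and 16.2% of all genes tested. Over all genes tested 49.3% were above 0. Among coding genes of at least 10 CPM the share was 42.8% under 300 coding bases and 63.9% at 1000 or more. None of the 14 was called, and the 2 groups of members were not tested against each other. The split depends on the list used. Sdhc, which helps bind coenzyme Q and haem, is among the 70 and was higher without overlap (log2 fold change 0.26). Ndufs3, for which no redox centre is named here, is among the 14, at -0.04 with overlapping groups. Without each input in turn, 10 to 12 of the 14 and 18 to 32 of the 70 were above 0.

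**Figure D3:**
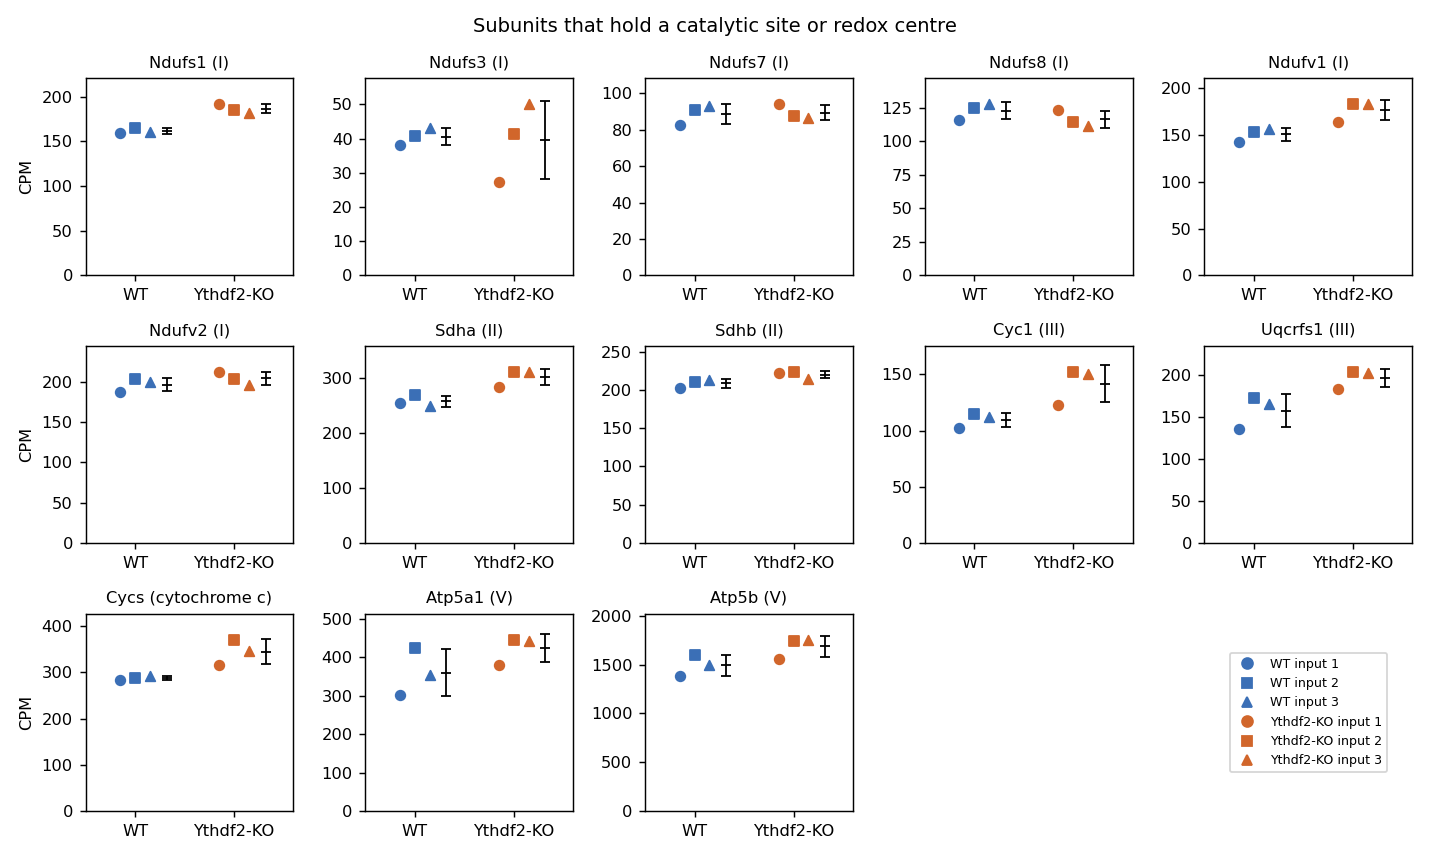
CPM of 13 of the 14 subunits listed as catalytic or redox-centre, in each input library (points). The mean and SD of the 3 libraries of a genotype are beside them, and vertical axes start at 0 and differ between panels. In Ndufs1, Ndufv1, Sdha, Sdhb, Cyc1, Uqcrfs1 and Cycs every Ythdf2-KO point lies above every WT point.

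The 14 listed subunits also have longer coding sequences, with a median of 911 bases against 360 in the other protein-coding members. Across the 80 coding members of at least 10 CPM, the log2 fold change and the coding length had a Spearman correlation of 0.46, against 0.12 across all 9321 tested coding genes at that level. All points share the same 6 libraries, so these are descriptions of them. Of 21 members with under 300 coding bases, 23.8% were above 0, and the share was 37.9% of 29 members from 300 to under 500 bases. It was 68.4% of 19 members from 500 to under 1000 bases and 72.7% of 11 members of 1000 bases or more. All tested coding genes in the same bins had 42.8%, 44.4%, 57.8% and 63.9% above 0. Role and length go together only in part in these members, and their shares in the fold change were not tested. The listed subunit Cycs has 315 coding bases (log2 fold change 0.26). The members of 1000 coding bases or more outside the list were Ndufa9 (-0.004), Ndufa10 (0.19), Ndufv3 (-0.17), Uqcrc1 (0.16) and Uqcrc2 (0.15).

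**Figure D4:**
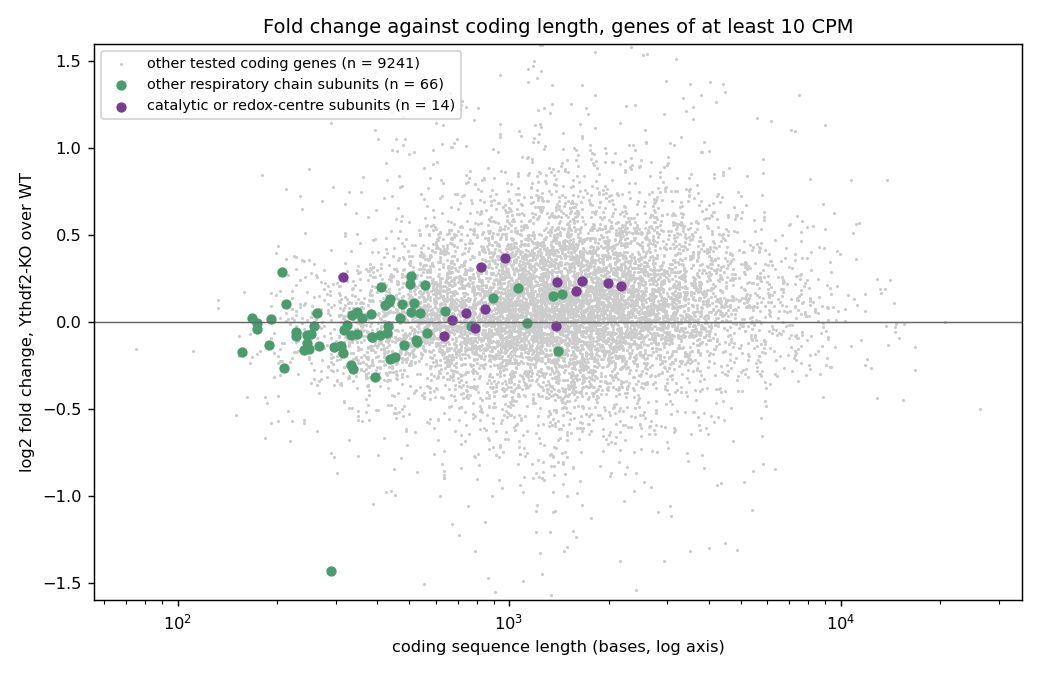
Log2 fold change (Ythdf2-KO over WT) against coding length in bases (log axis) for tested coding genes of at least 10 CPM; grey points are other genes, green points respiratory chain subunits and purple points the catalytic or redox-centre subunits. The shortest members lie mostly below 0 and the longest mostly above, and 44 other genes fall outside the vertical axis.

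Several member counts depend on how reads were assigned. The excluded copies Ndufa12-ps, Cox5b-ps (annotated as protein-coding) and Atp5pb-ps averaged 52.8, 25.8 and 18.1 CPM. Reads of near-identical sequence may therefore be split between gene and copy. The 3 pseudogene members averaged 2.40 CPM (Ndufs6b), 7.79 CPM (Cox6c2) and 27.5 CPM (Ndufb4c) and carry the same doubt. In addition, 22 members overlap an expressed gene on the other strand, and no source used here gives the counting's use of strand. Ndufb1-ps, at 79.9 CPM, was also left out for its suffix. It is annotated as a noncoding RNA of a bidirectional promoter, and the symbol rule matched no row named Ndufb1.

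The genes that act with the subunits were read from 5 lists in the same fit, where 2.99% of all genes tested were called higher and 1.54% lower. All 13 mitochondrially encoded mRNAs, which code for the remaining subunits, were tested and none passed. Without KO-labelled input 1 edgeR called 8 of them lower, where it called 16.1% of all genes tested lower. With DESeq2 on all 6 libraries 2 of them were lower, against 6.80% of all genes. The 13 mRNAs had a median log2 fold change of -0.24, with 12 below 0. Their levels summed to 10706 to 14026 CPM in WT and 10361 to 11273 CPM in the KO-labelled libraries. Poly(A) selection recovers most of these RNAs through their own short tails, so their level is not measured like that of nuclear mRNAs. Of 14 enzymes of the tricarboxylic acid cycle outside complex II, 3 (21.4%) passed and rose in the KO-labelled libraries: Idh2, Ogdh and Idh3a. Idh2, the NADP-dependent isocitrate dehydrogenase, measured 225, 239 and 228 CPM in WT and 278, 341 and 336 CPM where KO-labelled (0.47 on the log2 scale, SE 0.09, edgeR adjusted p = 0.0421). Ogdh, of the oxoglutarate dehydrogenase complex, measured 193, 206 and 191 CPM against 253, 268 and 271 CPM (0.43, SE 0.07, adjusted p = 0.0333), and Idh3a, of the NAD-dependent isocitrate dehydrogenase, had 0.34 (SE 0.07, adjusted p = 0.047). None of the 3 overlapped between groups, and 13 of the 14 enzymes were above 0 with a median of 0.23.

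Of 47 tested assembly factors 1 (2.13%) passed, a share below that of all genes called higher, and the list median was -0.03. It was Tmem70, which helps assemble ATP synthase, at 61.1, 56.3 and 56.1 CPM in WT and 74.1, 79.5 and 69.7 CPM where KO-labelled (0.36 on the log2 scale, SE 0.08, edgeR adjusted p = 0.0497). Of 14 regulators of mitochondrial biogenesis 1 (7.14%) passed: Esrra, a nuclear receptor that activates oxidative genes, at 33.5, 35.4 and 33.4 CPM against 41.5, 45.3 and 47.6 CPM (0.39, SE 0.09, adjusted p = 0.0495). The groups of these 2 genes did not overlap, and the adjusted values lie just under the threshold. Of 13 genes of coenzyme Q synthesis none passed, and their median was -0.02. These 5 calls were lost when any 1 WT input or KO-labelled input 2 or 3 was left out.

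Members were listed with YTHDF2 RIP peaks less often than genes in general. For m6A peaks the gap was small beside all genes tested and wide beside coding genes of at least 10 CPM. At least 1 WT m6A peak was listed for 33 of 84 members (39.3%, 46 peaks), against 48.7% of all genes tested. The Ythdf2-KO m6A list held 32 members (38.1%, 44 peaks) against 45.0%, and the YTHDF2 RIP list 5 members (5.95%, 8 peaks) against 34.3%. In the better-scored part of each list, at or below its median score, the shares were 31.0% of members and 32.2% of all genes for WT m6A and 27.4% and 29.6% for Ythdf2-KO m6A. For RIP they were 4.76% and 23.6%. All genes tested include noncoding genes and have a lower median level than members. Among coding genes of at least 10 CPM, 41.25% of 80 members and 79.1% of 9321 genes had a WT m6A peak. The shares were 40.0% and 75.7% for Ythdf2-KO m6A, and 6.25% and 55.5% for RIP. The lists are 1 per condition, so no replicate error can be given, and the share of genes with a peak is described without a test. Among related genes, the RIP list held 4 of 14 tricarboxylic acid cycle enzymes, 17 of 47 assembly factors, 11 of 14 biogenesis regulators and 4 of 13 coenzyme Q genes.

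Subunit mRNAs are short, with a median length of 870 bases and 4 exons in the 80 coding members of at least 10 CPM, against 3039 bases and 9 exons in all tested coding genes at that level. Shares were therefore also read by mRNA length. Under 750 bases, 44.1% of 34 members and 49.8% of 237 genes had a WT m6A peak, and 2.94% of members and 5.06% of genes had a RIP peak. From 750 to under 1500 bases the WT m6A shares were 36.0% of 25 members and 63.8% of genes, and the RIP shares 4.00% and 20.3%. From 1500 to under 3000 bases they were 50.0% of 16 members and 76.5% of genes for m6A, and 12.5% and 45.7% for RIP. The 5 longest members had 1 gene with a peak in each list, where 86.1% and 73.2% of genes of 3000 bases or more had one.

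**Figure D5:**
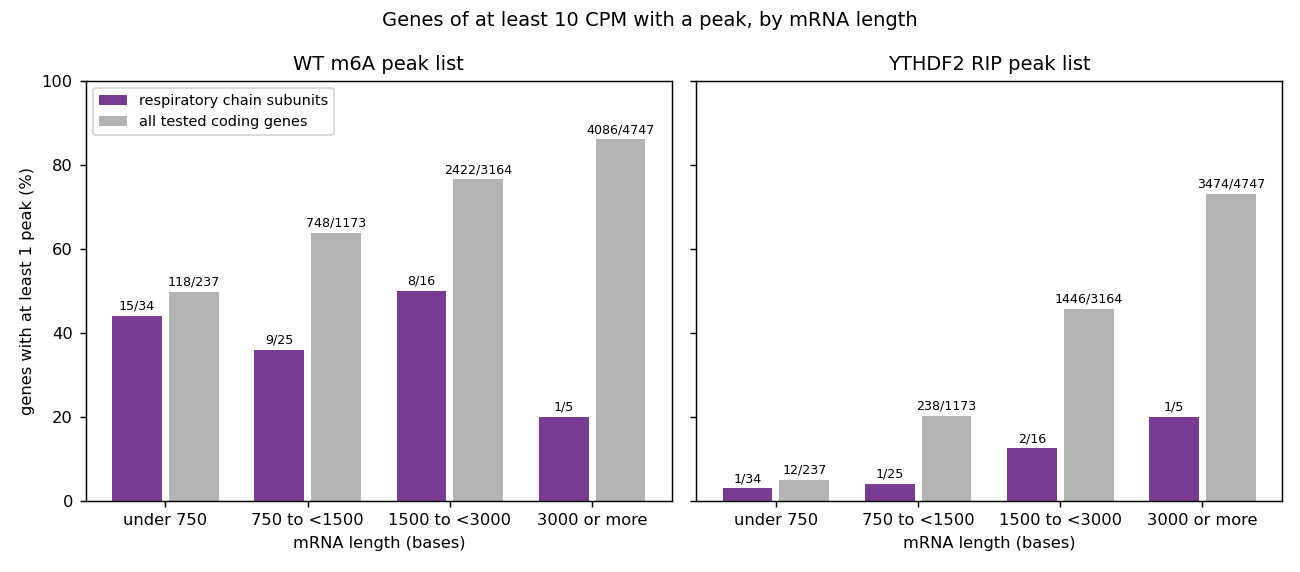
Percent of genes of at least 10 CPM with 1 or more listed peaks (bars, axis from 0) by mRNA length, for respiratory chain subunits (purple) and all tested coding genes (grey), in the WT m6A list and the YTHDF2 RIP list; the numbers over the bars are genes with a peak over genes in the bin. Member bars are the lower ones in each length bin of both lists.

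Most m6A peaks of members shared bases with a peak of the other genotype. Of 46 WT peaks 44 overlapped a Ythdf2-KO peak by at least 1 base, and 43 of 44 Ythdf2-KO peaks overlapped a WT peak. The median width was 208.5 bases in WT and 180.5 bases in Ythdf2-KO. The matching shares over all peaks of the lists were not taken, so the overlap cannot be called particular to members. The 2 listed in WT alone were in Cox6a2 and Atp5l, and the peak listed in Ythdf2-KO alone was in Atp5o. The Atp5l peak lay off the gene's representative transcript. Its deposited score of 4.3e-08 ranked at 87.4% of the WT list, counted from the lowest score. The Cox6a2 peak lay in a gene that measured 4.49 and 3.34 CPM in 2 of the 3 KO-labelled inputs, and a lower input was not separated from lower methylation. By their centre, 25 of the WT peaks lay in coding sequence, 13 in the 3′ UTR, 5 in the 5′ UTR and 3 off the representative transcript. The centre was within 200 bases of the stop codon in 22 peaks, and 40 held the m6A motif DRACH on the transcript. Neither count was taken over all 19236 WT peaks, so neither can be read as a trait of members. Member mRNAs are short (median 870 bases in coding members of at least 10 CPM), which places much of each near the stop codon. Members with a WT m6A peak had a median log2 fold change of -0.02 (15 of 33 above 0), and members without one also -0.02 (22 of 51 above 0).

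The lowest deposited scores, read as p-values from their range alone, fell on small subunits as well as on Cycs and Cox7a2l, whose WT m6A scores are listed as 0. The windows show the DRACH match nearest the centre of the lowest-scored WT m6A peak in a complex, in mRNA sense with the motif in capitals (mm10; GENCODE M21 transcripts). The Ndufa12 window is at chr10:94199975-94200001 on the plus strand, in coding exon 2. The Uqcrh window is at chr4:116069979-116070005 and the Cycs window at chr6:50565307-50565333, both coding and on the minus strand. The Atp5k window, on chromosome 5, spans an exon junction.
Ndufa12: ctggtgggagaAGACAaatatggaaat
Uqcrh: gagagcactgtGAACAgctggagaagt
Cycs: gtacatccctgGAACAaaaatgatctt
Atp5k: ggattgagagaGAACTggcggaagctc

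Ndufv3, an accessory subunit of the peripheral arm, carried the widest member peak. Exon 3 of its annotated transcript is 1092 bases long, the longest of 274 internal exons of the members, whose median is 117 bases. The WT peak spans 1133 bases (chr17:31527310-31528442, plus strand) and covers that whole exon, with 25 DRACH motifs on the transcript, and the Ythdf2-KO peak spans 954 bases within it. Ndufv3 measured 183, 199 and 210 CPM in WT and 176, 178 and 173 CPM in the KO-labelled libraries. The groups did not overlap (log2 fold change -0.17, SE 0.07, edgeR adjusted p = 0.181). The middle 240 bases of the WT peak (chr17:31527736-31527975) are printed with their 9 motif matches in capitals. How often the motif occurs in other exons was not counted, so these numbers do not mark the exon as rich in it.
Ndufv3 exon 3: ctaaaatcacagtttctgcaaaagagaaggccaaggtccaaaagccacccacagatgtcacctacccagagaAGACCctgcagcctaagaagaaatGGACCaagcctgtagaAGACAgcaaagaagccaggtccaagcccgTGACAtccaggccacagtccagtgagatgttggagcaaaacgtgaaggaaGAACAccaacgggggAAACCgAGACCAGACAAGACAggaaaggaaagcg

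Ndufa10 had the most m6A peaks, 4 in each list. The accessory subunit Ndufb10 had 3 in WT and 2 in Ythdf2-KO, where a 534-base peak spans 2 of the WT peaks, and Ndufa12, Ndufb7, Ndufb8, Ndufv1, Uqcrb and Uqcrh had 2 in each list. Bases listed for a member could belong to a neighbour: the Atp5j peak is also listed for Gabpa and the Uqcrc2 peak for Pdzd9, each on the other strand.

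YTHDF2 RIP peaks were listed for Sdha, Ndufs1, Cycs, Cox7a2l and Cox6c. Sdha had 3, of which the lowest-scored covers 599 bases at the end of its 3′ UTR (chr13:74322254-74322852, minus strand), and no m6A peak in either list. Ndufs1 had 2, in coding exon 7 and the 3′ UTR, neither overlapping its m6A peak in coding exon 10. In Cycs the RIP peak of 91 bases lies in the 3′ UTR inside the m6A peak, and in Cox7a2l the RIP peak of 917 bases covers the m6A peak of 533 bases. The Cox6c peak lies off its representative transcript, and the same bases are listed for Vps13b on the other strand. Of these 5 genes, Sdha, Ndufs1 and Cycs had log2 fold changes of 0.23, 0.21 and 0.26, and Cox7a2l and Cox6c of -0.25 and -0.06. The windows show a DRACH match in the lowest-scored RIP peak of Sdha (chr13:74322559-74322585) and in the bases shared by RIP and m6A peaks of Cycs (chr6:50565112-50565138) and Cox7a2l (chr17:83502193-83502219), all on the minus strand and in 3′ UTRs.
Sdha: ctttgtcaactTGACAaaaatctagca
Cycs shared: atgtttttgttGGACAgtcctgattta
Cox7a2l shared: caaaagccagcGGACAggtggtgaagt

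A minority of members shared sequence around their start codons. The 9 letters AAGATGGCG, with ATG at the annotated start codon, were found in 10 of 81 coding members (12.3%) and in 2.32% of 12827 tested coding genes. The windows run from 9 bases before the start codon, which is in capitals, and show the shared context in 5 complex I members and the complex III core protein Uqcrc1.
Ndufa6: ctcggcaagATGgcggccgcggcc
Ndufa9: tgggagaagATGgcggccgccgtc
Ndufs4: tacaggaagATGgcggcggtctca
Ndufs6: accggcaagATGgcggcggtgctg
Ndufs7: gaggccaagATGgcggcgctggcg
Uqcrc1: agttagaagATGgcggcgtccgca

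These genes did not share a direction: Ndufa6 was at -0.32, Ndufs4 at -0.11, Ndufs6 at -0.07, Ndufa9 at 0.00, Ndufs7 at 0.01 and Uqcrc1 at 0.16 on the log2 scale. The YY1 letters searched in promoters are contained in this context.

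Promoters from 250 bases before to 50 bases after the start (RefSeq, GRCm38) were found for 67 of the 81 coding members, 72 promoters in all. Letters were searched on both strands, and a match is a description of sequence alone. GCATGCGC, of the kind bound by NRF1, a regulator of nuclear genes for mitochondrial proteins, was in 15.3% of member promoters, 2.71% of all 32851 promoters and 4.98% of promoters of tested coding genes. AAGATGGC, of the kind bound by YY1, was in 13.9%, 2.75% and 4.16%, and Atp5j2, Ndufa9, Ndufc1, Ndufs4, Ndufs6 and Ndufs7 held both it and the start codon context. CCGGAAGT, of the ETS kind that GABPA binds, was in 6.94%, 3.89% and 7.72%. GCATGCGC on 1 strand can overlap a match of itself on the other. Uqcr11 alone held 2 of the motifs, NRF1 and ETS letters, at separate positions. Any of the 3 was in 34.7% of member promoters, 8.83% of all promoters and 15.7% of those of tested coding genes. The windows show NRF1 letters in capitals before the start of 4 members from different complexes: Cycs in chr6:50566520-50566819 and Atp5k in chr5:108434350-108434649 (minus strand), and Sdhb in chr4:140961021-140961320 and Ndufa11 in chr17:56717512-56717811 (plus strand).
Cycs promoter: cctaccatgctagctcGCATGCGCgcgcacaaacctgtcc
Atp5k promoter: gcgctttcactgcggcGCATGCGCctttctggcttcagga
Sdhb promoter: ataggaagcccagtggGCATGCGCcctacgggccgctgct
Ndufa11 promoter: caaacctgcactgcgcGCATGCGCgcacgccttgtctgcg

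The levels of the factors themselves were measured in the same libraries. Nrf1 was at 47.9, 41.8 and 42.1 CPM in WT and 48.4, 46.9 and 49.1 CPM where KO-labelled (0.13 on the log2 scale, SE 0.08, edgeR adjusted p = 0.330). Gabpa was at 80.9, 77.9 and 74.5 CPM against 89.1, 92.2 and 88.2 CPM (0.21, SE 0.07, adjusted p = 0.0941). Yy1 was at 91.1, 104 and 94.0 CPM against 89.4, 108 and 107 CPM (0.07, SE 0.10, edgeR adjusted p = 0.653). None of these factors passed the test, and only for Gabpa did the groups not overlap.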

How the data were processed

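The deposited gene count table holds whole-number counts of 6 input libraries, 3 per genotype. The submitters' processing notes list HISAT2, HOMER, ChIPseeker and mm10 without saying what each was used for. No source used here gives the counter, its use of strand or the peak caller. The deposited peak lists carry 1 score per peak, read as a p-value from its values alone. They were used as deposited, 1 list per condition. The m6A and RIP libraries enter only through these lists.

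Counts were tested with edgeR 4.0.16 (filterByExpr, TMM, quasi-likelihood) over all genes, with Benjamini-Hochberg adjustment at 0.05, and tested on simulated data. CPM use TMM-scaled library sizes. DESeq2 1.42.0, RLE factors, no filter, a replicate block and leaving out each input were the alternatives. Transcripts, exons and coding sequence are from GENCODE M21, with 1 representative transcript per gene. Peaks were joined to genes by the Ensembl identifier. Promoters are from RefSeq. The genome sequence and proteins were not used here.

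Members, lists and tests were chosen with earlier results of these data known. Named were, in each complex, the members of highest and lowest fold change and highest level per length, the isoform sets, the catalytic or redox-centre subunits, up to 15 members by number of peaks, and called genes of each list. Others are named in the text for a stated reason, after their values were seen. 1 member that the rule names is not reported here singly and is left out of 2 figures, but is in every count.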

Additional observations from a re-analysis of the deposited data

How the results depend on the processing

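The count of 0 called members was 7 with DESeq2 and 0 with RLE factors, without the filter on low counts and with the replicate block. Leaving out 1 input at a time gave 0 to 14, with 14 only without KO-labelled input 1. The members' median log2 fold change of -0.02 became -0.08 without WT input 1, with 28 of 84 above 0 against 49.3% of all genes. WT input 1 was the lowest WT input for 64 of the 84 members, and for 7380 of all 18969 genes tested. The 5 calls in the pathway lists became 19 with DESeq2, 2 with RLE factors, 0 without the filter and 0 with the replicate block, and ranged from 0 to 44 when 1 input was left out. The number of genes called overall depended as strongly on these choices: the 861 of edgeR were 3268 with DESeq2, 786 with RLE factors, 111 without the filter and 71 with the block, and ranged from 0 without WT input 2 to 6926 without KO-labelled input 1. Same-numbered inputs had correlated deviations of 0.05, 0.11 and 0.05, each highest with its own number, so the pairing is a hint from the data only. Among 37 named members the sign turned in 4, all 0.04 or less in size, when 1 input was left out: Cox6a1 ranged from -0.028 to 0.073, Cox6b1 from -0.083 to 0.0077, Ndufs3 from -0.24 to 0.17 and Ndufs7 from -0.052 to 0.040. The cause was not tested. Peaks in the better-scored part of each list left 26, 23 and 4 members with a peak in the WT m6A, Ythdf2-KO m6A and RIP lists (31.0%, 27.4% and 4.76%, against 32.2%, 29.6% and 23.6% of all genes tested). The members of lowest count, Cox7a1 and Ndufs6b, had SEs of 0.21 and 0.18 on the log2 scale, against a median of 0.08 over members.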
